A study of Mus musculus with 4 samples.

Results

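HL-1 is a cell line of mouse atrial muscle that divides in culture and still beats. This account describes the transcripts of unpaced HL-1 cells, taken from the 2 control arrays of a series of 4. Both were chosen by their labels, as cells grown to confluence in Claycomb medium, on coverslips coated with gelatin and fibronectin, that contracted by themselves with no electrical stimulation. The other 2 arrays came from cells paced at 300 beats per minute for 24 h and were not used here. Biotin-labelled material made from total RNA was read on Affymetrix arrays, 1 for each sample. The labels call 1 control experimental sample 2 but do not say whether the 2 controls were separate cultures, so the SD of 2 arrays may be partly technical. No groups were compared and no statistical test was made: every value below is a description of these 2 arrays.

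HL-1 cells descend from the AT-1 atrial tumour line, which arose in a mouse that expressed the SV40 large T antigen from the promoter of the atrial natriuretic factor gene, Nppa. Large T antigen binds the retinoblastoma proteins and p53, which otherwise hold cells out of the division cycle. Adult heart muscle cells hardly divide, so a line that divides, makes sarcomeres and beats carries gene programs that rarely stand side by side in the heart. All HL-1 cells trace back to 1 transformed lineage, and an array averages over every cell in the dish. Fewer cells of a type and less RNA per cell cannot be told apart in such bulk values.

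The promoter stretches of 4 genes that recur below are shown for context, as the 250 bases before the RefSeq start in build GRCm38.p6, 5′ to 3′ on the strand of the gene. Nppa is the gene whose promoter made the line, Myl7 had the highest level of all genes measured, Actc1 stands for the sarcomere and Top2a for dividing cells. Capitals mark every match, on either strand, to 8 motifs, and the same 8 were searched in all 4 stretches. They were TATAAA (the TATA box), AGGTGT (the core bound by T-box factors), CAAGTG (bound by Nkx2-5) and AGATAA (bound by GATA factors). The others were CCAAT (the site of NF-Y), TTTGAA (a motif of cell cycle promoters), the CArG box, to which serum response factor binds, and the MEF2 site, which had no match in these stretches. Where a motif lies on the opposite strand, its reverse complement is in capitals.
Nppa, chr4:148000472-148000721, plus strand: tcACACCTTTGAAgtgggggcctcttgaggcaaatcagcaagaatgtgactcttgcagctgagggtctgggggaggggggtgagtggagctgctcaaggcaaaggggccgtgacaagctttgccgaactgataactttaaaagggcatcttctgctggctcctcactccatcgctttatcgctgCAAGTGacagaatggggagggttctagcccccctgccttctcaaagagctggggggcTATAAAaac
Myl7, chr11:5898783-5899032, minus strand: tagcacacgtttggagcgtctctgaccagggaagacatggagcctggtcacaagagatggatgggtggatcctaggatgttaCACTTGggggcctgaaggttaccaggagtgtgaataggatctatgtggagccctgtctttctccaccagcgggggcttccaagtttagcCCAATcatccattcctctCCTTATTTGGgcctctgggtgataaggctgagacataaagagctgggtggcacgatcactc
Actc1, chr2:114052876-114053125, minus strand: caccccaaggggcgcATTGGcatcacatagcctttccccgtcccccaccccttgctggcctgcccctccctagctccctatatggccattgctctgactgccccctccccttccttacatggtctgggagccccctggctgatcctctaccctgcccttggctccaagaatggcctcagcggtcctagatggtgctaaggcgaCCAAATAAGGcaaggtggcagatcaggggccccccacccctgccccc
Top2a, chr11:99024190-99024439, minus strand: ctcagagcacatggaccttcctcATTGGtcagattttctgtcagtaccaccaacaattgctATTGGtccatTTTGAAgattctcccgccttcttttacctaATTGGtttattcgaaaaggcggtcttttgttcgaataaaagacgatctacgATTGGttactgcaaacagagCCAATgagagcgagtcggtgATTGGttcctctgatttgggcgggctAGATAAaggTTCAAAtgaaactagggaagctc
Myl7 and Actc1 each held 1 CArG box, from 61 to 52 and from 47 to 38 bases before the start. Each also held 1 CCAAT, and Myl7 1 CAAGTG. Nppa held TATAAA from 9 to 4 and CAAGTG from 66 to 61 bases before its start. Farther out it held AGGTGT on the opposite strand, from 248 to 243, and TTTGAA, from 243 to 238, which share 1 base. Top2a held 6 CCAAT motifs, 5 of them on the opposite strand, 2 TTTGAA motifs and 1 AGATAA. Among the sarcomere genes above background, 21.7% of 46 promoter windows held a CArG box, against 1.47% of all 32851 windows of that length. A MEF2 site, searched by the same means, was in 8.7% of the sarcomere windows and 0.508% of all. AGATAA was in 17.4% of the sarcomere windows and 9.99% of all, AGGTGT in 13.0% and 11.8%, and CAAGTG in 6.52% and 11.6%. Among the proliferation genes, CCAAT was in 33 of 44 windows (75.0%) and TTTGAA in 10 of them (22.7%), against 33.8% and 16.0% of all windows. TTTGAA was not particular to them: it was in 24.1% of 29 windows of cardiac transcription factors. In the sarcomere and atrial windows its share was lower, 15.2% and 8.33%. CCAAT was in 48.3% of the cardiac transcription factor windows, 34.8% of the sarcomere windows and 3 of 12 atrial windows. TATAAA was in 20.7% of the cardiac transcription factor windows, 15.2% of the sarcomere windows and 8.33% of the atrial windows. It was in 0 of the 44 proliferation windows and in 12.4% of all. A match of letters is no proof of a binding site, and some genes have several windows.

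Levels are on the log2 scale, so that 1 unit is a 2-fold difference in array signal. Each of the 18193 genes measured was represented by its brightest probe set, a set of short probes annotated with a single gene symbol. A single symbol does not make a set specific to 1 transcript. Probe sets differ in how well they capture their target, so a rank is one of signal and not of mRNA copies, and levels of different genes are given side by side without a fold between them. A gene was called above background when it exceeded, on both arrays, the 95th percentile of 73 olfactory, vomeronasal and taste receptor genes, which lay at 5.14 on control 1 and 5.00 on control 2. By this rule 10996 of the 18193 genes, 60.4%, were above background, 463 exceeded it on 1 array only and 6734 on neither. Of 30 genes of liver, gut and pancreas, such as Alb (albumin, 4.19 and 3.71), 6 were above background, or 20.0%. Close to the line, Lyz2 (5.21 and 5.18) and Hand1 (5.33 and 5.12) were just above it, and Map2 (5.76 and 4.95) and Bmp10 (5.13 and 5.80) passed on 1 array only. Across all genes the arrays correlated at r = 0.995, a figure over genes, which are not independent replicates.

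The highest level belonged to Myl7, the atrial regulatory myosin light chain, at 13.85 and 13.84. Among the 30 highest genes, clone names left out, 13 encoded ribosomal proteins and 5 subunits of the respiratory chain or ATP synthase, such as Cox5b (13.65 and 13.61) and Atp5b (13.32 and 13.30). Muscle genes in that set were Myl7, the atrial essential light chain Myl4 (13.38 and 13.36), cardiac actin Actc1 (13.25 and 13.46), the sarcoplasmic calcium pump Atp2a2 (13.39 and 13.21) and, of the smooth muscle type, alpha-actin Acta2 (13.65 and 13.74) and the light chain Myl9 (13.36 and 13.76). The other 6 were the cytoplasmic actin Actb (13.79 and 13.73), the translation factor Eef1a1 (13.70 and 13.70), Tpt1 (13.64 and 13.58), the secreted glutathione peroxidase Gpx3 (13.45 and 13.47) and the glycolytic enzymes Pgk1 (13.20 and 13.49) and Tpi1 (13.11 and 13.40). For some of these genes other probe sets read far lower, as for Acta2 (means of 6.19 and 5.57) and Tpt1 (3.68).

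**Figure D1:**
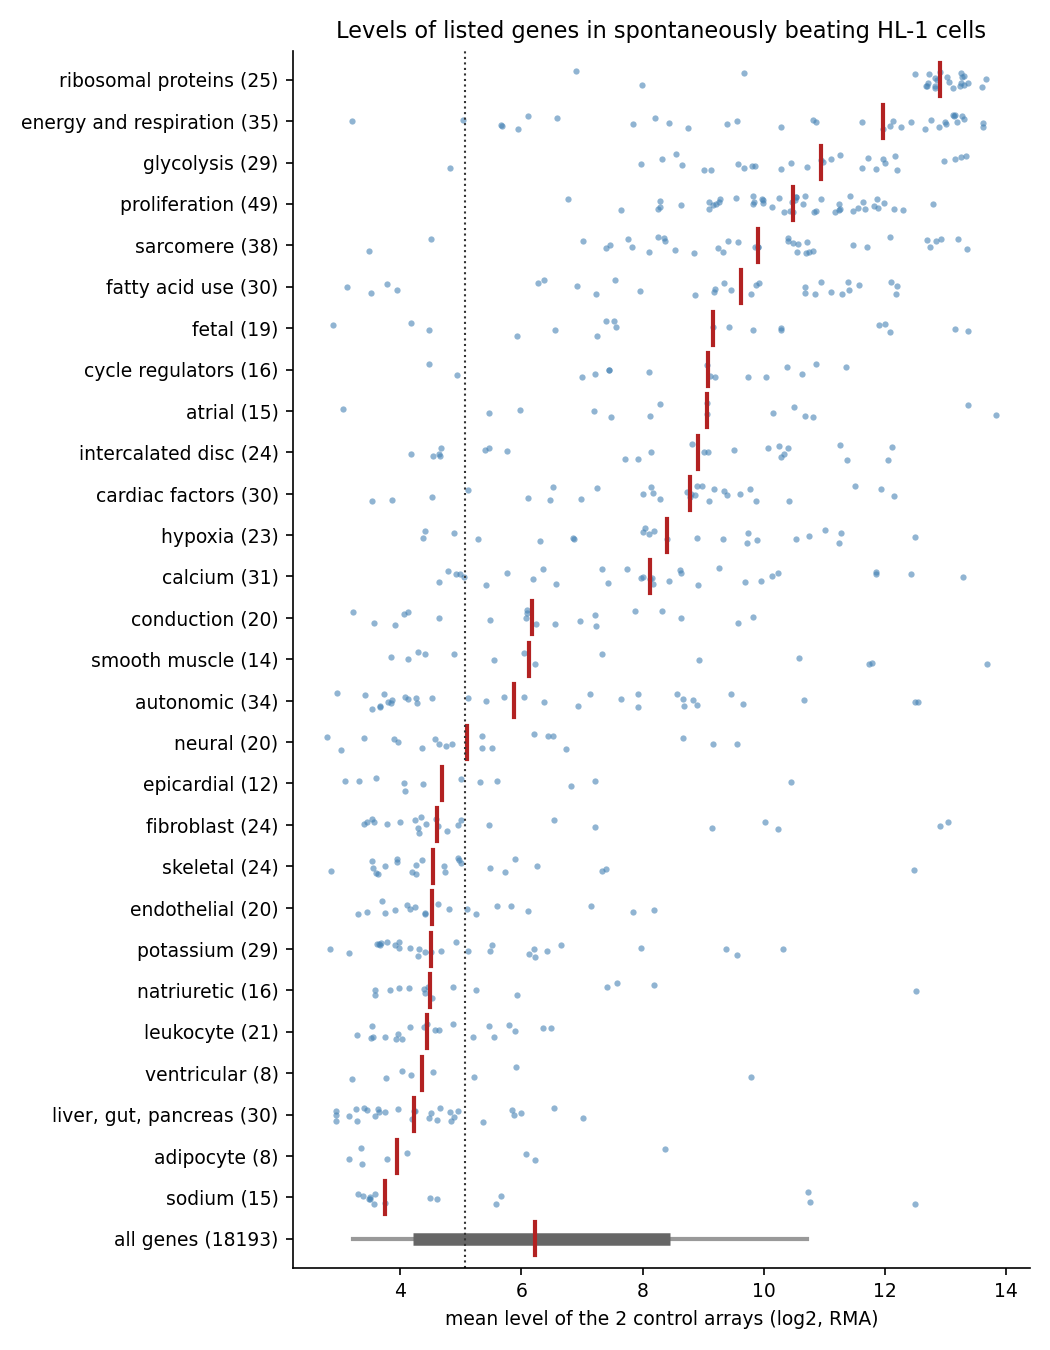
Each row is a list of genes (number measured in brackets), each point 1 gene at its mean of the 2 control arrays on the log2 scale, the red bar the median of the list and the dotted line the mean background level of 5.07. For all genes the thick bar spans the middle 50% and the thin line the 5th to the 95th percentile. Ribosomal, energy, glycolysis, proliferation and sarcomere genes have medians between 9.91 and 12.92. Ventricular, skeletal, potassium channel, natriuretic, and sodium channel and pump genes have medians below the background level. So do fibroblast, endothelial, leukocyte, epicardial, fat cell, and liver, gut and pancreas genes.

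The 4 genes taken as markers for this account were all high. This is a description and no independent support for what the line is. Nppa, which encodes atrial natriuretic peptide, read 10.69 and 10.96 (mean 10.82 ± 0.20, rank 819 of 18193). Myh6, the alpha myosin heavy chain, read 12.70 and 12.79 (12.74 ± 0.06, rank 99). Hopx, a small homeodomain cofactor of cardiac genes, read 12.21 and 12.09 (12.15 ± 0.09, rank 207), and Fhl1, a LIM domain protein of the sarcomere, read 12.83 and 12.87 (12.85 ± 0.03, rank 82). The arrays lay within 0.28 of each other for all 4 genes. Second probe sets of Myh6, Hopx and Fhl1 were above background too, at means of 8.75, 10.56 and 7.22. When all probe sets of a gene were averaged, Fhl1 moved from the highest 0.451% to the highest 4.43% of genes and Myh6 from 0.544% to 2.3%. Of the 4, Nppa alone is in the atrial list used here, since Myh6, Hopx and Fhl1 are genes of heart muscle at large.

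Of 15 atrial genes measured, 13 were above background (86.7%, against 60.4% of all genes), with a median level of 9.06 where that of all genes was 6.22. Besides Myl7, Myl4 and Nppa they included Pam (10.50 and 10.86), a peptide-amidating enzyme that is a main membrane protein of atrial granules, and the transcription factor genes Hey1 (10.58 and 10.44), Tbx5 (8.80 and 9.34), Nr2f1 (9.05 and 9.08) and Nr2f2 (8.00 and 8.26). The last of these, also called COUP-TFII, sets atrial identity in the embryo. Stard10, a lipid transfer protein gene, read 10.04 and 10.26. The acetylcholine-gated channel subunits Kcnj5 and Kcnj3 read 8.10 and 8.49 (Kcnj5), and 6.07 and 5.88 (Kcnj3). Sln, sarcolipin, a small inhibitor of the calcium pump, read 7.06 and 7.91, and Gja5, the atrial gap junction protein connexin 40, read 6.81 and 7.60. For both, control 2 was the higher array, by 0.86 and 0.78. Myl4 and Sln each had a second probe set, at means of 6.05 and 3.86, the latter below background. Second probe sets of Tbx5 and Kcnj5, at 8.48 and 7.21, were above background. For Kcnj3 2 of 4 probe sets were above background, and for Nr2f2 4 of 6. Bmp10, a secreted growth factor of the right atrium, exceeded background on control 2 only. Kcna5, the channel of the ultrarapid potassium current, read 3.18 and 2.93, far below it.

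**Figure D2:**
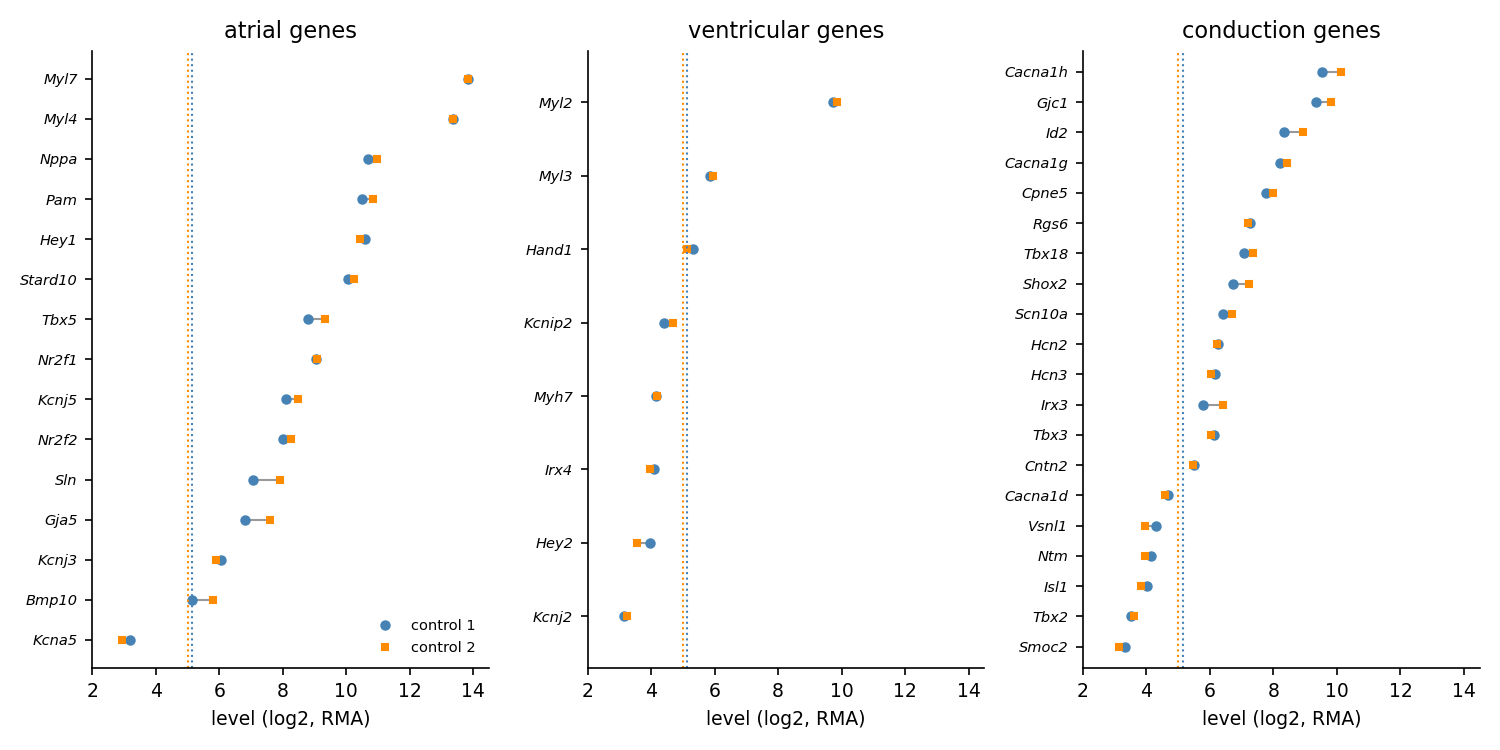
Levels of atrial, ventricular and conduction genes on control 1 (circles) and control 2 (squares), log2 scale, with the background level of each array as a dotted line. Most atrial genes lie to the right of the lines, from Kcnj3 near 6 to Myl7 near 13.8, and 5 of 8 ventricular genes lie to the left.

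Ventricular genes were mostly at background. Of 8 measured, 3 were above it (37.5%, against 60.4% of all genes), and the median of 4.36 lay below the line and below the 6.22 of all genes. The exception was Myl2, the ventricular regulatory light chain, at 9.72 and 9.86 (rank 1927), measured by 1 probe set. Myl3, the ventricular essential light chain, read 5.85 and 5.96, and Hand1, a factor of the embryonic left ventricle, was at the line as given above. Not above background were Myh7, the beta myosin heavy chain (4.14 and 4.19), the ventricular transcription factors Irx4 (4.09 and 3.95) and Hey2 (3.97 and 3.55), and the potassium channel subunit genes Kcnip2 (4.40 and 4.69) and Kcnj2 (3.15 and 3.25). Kcnj2 carries most of the inward rectifier current of the ventricle.

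Genes of the pacemaker and conduction system were mixed, with 14 of 20 measured above background (70.0%) and a median of 6.17, near the 60.4% and 6.22 of all genes. Another 5 listed genes were not analysed here. In the rank order Cacna1h, Gjc1 and Id2 came highest. The T-type calcium channels Cacna1h and Cacna1g, which open at low voltage and help pacing, read 9.53 and 10.12 (Cacna1h), and 8.21 and 8.44 (Cacna1g). Gjc1, connexin 45, the connexin of nodal tissue, read 9.33 and 9.82, and its second probe set gave a mean of 9.57. Of the pacemaker current channels, Hcn2 read 6.26 and 6.21 and Hcn3 6.15 and 6.04. The sodium channel gene Scn10a read 6.42 and 6.70. Among transcription factors of the sinus node and conduction tissue, Id2 (8.35 and 8.93), Tbx18 (7.06 and 7.37), Shox2 (6.71 and 7.22), Irx3 (5.77 and 6.42) and Tbx3 (6.12 and 6.02) were above background. Isl1 (4.01 and 3.82) and Tbx2 (3.53 and 3.60) were not, nor was Cacna1d (4.69 and 4.59), the L-type channel of the sinus node. Cntn2, a cell adhesion protein used to mark Purkinje cells, stood at 5.48 and 5.47, and only 1 of its 4 probe sets was above background. Likewise 1 of 2 Shox2 probe sets and 2 of 5 Tbx3 probe sets were.

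Cardiac sarcomere and Z-disc genes were nearly all above background, 36 of 38 measured (94.7%, against 60.4% of all genes). Of these, 21 stood among the highest 10% of all genes. After Actc1 the brightest were cardiac troponin T, Tnnt2 (13.32 and 13.11), alpha-tropomyosin, Tpm1 (12.85 and 13.03), Fhl1 and Myh6. Cardiac troponin I, Tnni3 (12.85 and 12.55), and its fetal and slow skeletal counterpart Tnni1 (12.15 and 12.03) were both high. Mybpc3, cardiac myosin binding protein C, read 11.57 and 11.38, the giant protein titin, Ttn, 10.82 and 10.63, and alpha-actinin 2, Actn2, 10.58 and 10.53. Ankrd1, a stress-responsive protein of the Z-disc and nucleus, differed between the arrays (10.30 and 11.21). Lower in this group were Tnnc1, cardiac troponin C (7.51 and 7.40), and Acta1, skeletal alpha-actin (7.51 and 7.27). Myom2, an M-band protein of mature muscle, read 3.41 and 3.55 on 4 probe sets of which 0 were above background, and Trim54 read 4.58 and 4.43.

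Skeletal muscle isoforms stood mostly at background, with 7 of 24 above it (29.2%, against 60.4% of all genes). Myl1, the fast skeletal essential light chain, was the exception at 12.53 and 12.44 (rank 142). Casq1, the skeletal form of the calcium-storing protein calsequestrin, read 7.24 and 7.54 and Tnnt1, slow skeletal troponin T, 7.35 and 7.32. The myogenic factors Myod1 (4.18 and 4.21), Myog (4.83 and 4.62), Myf5 (2.87 and 2.83) and Myf6 (3.44 and 3.65) were not above background, and among the skeletal myosin heavy chains neither were Myh1, Myh2, Myh3 and Myh4, whose means ranged from 3.53 to 4.35. Myh8, the perinatal heavy chain, was above background at 5.25 and 5.70, as were Tnni2 (6.15 and 6.37), Mylpf (5.81 and 5.97) and Atp2a1 (5.64 and 5.81), fast-muscle forms of troponin I, a myosin light chain and the calcium pump. Of 19 genes linked to the fetal or stressed heart, 16 were above background (84.2%, against 60.4% of all genes). Among them was the growth factor Igf2 (12.08 and 11.74), whose second probe set stood at 4.75. Myl4, Ldha, Tnni1 and Acta1 are also in this list. The 3 not above background were Myh7, Dlk1 (4.45 and 4.48) and Lin28b (2.92 and 2.86). Nppb, brain natriuretic peptide, read 5.50 and 6.34, near the middle of all genes (rank 9642), and Ccn2, a matricellular protein, 7.14 and 7.98.

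Cardiac transcription factors and their cofactors were above background in 26 of 30 cases (86.7%), with a median of 8.79, against 60.4% and 6.22 for all genes. Nkx2-5, the homeobox factor at the base of the cardiac program, read 11.89 and 12.00 (rank 267). Mef2a read 10.46 and 10.38, Tbx20 9.96 and 9.80, Myocd (myocardin, which drives serum response factor) 9.74 and 9.80 and Gata4 9.46 and 9.32. Hand2 read 8.91 and 8.82, Mef2c 8.95 and 8.53 and Gata6 9.14 and 8.45, for which control 1 was the higher, by more than 0.5. Hif1a, the oxygen-sensitive factor placed in the same list, read 11.54 and 11.49. Not above background were Heyl (4.57 and 4.46), Tbx1 (3.82 and 3.90) and Prrx1 (3.59 and 3.48), and Mesp1 (5.03 and 5.20) passed on 1 array only. Tbx1, Prrx1 and Mesp1 mark earlier or other mesoderm.

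Calcium handling genes, which couple the action potential to contraction, were above background in 26 of 31 cases (83.9%, median 8.12). For all genes these figures were 60.4% and 6.22. In the sarcoplasmic reticulum, Atp2a2 stood beside its inhibitor Pln, phospholamban (11.94 and 11.77), the storage protein Casq2 (11.82 and 11.90), the release channel Ryr2 (9.52 and 9.85) and its partners Trdn (9.46 and 9.06) and Jph2 (9.74 and 10.17). Only 1 of 2 Ryr2 probe sets was above background. The L-type channel subunits Cacna1c and Cacnb2 read 8.11 and 8.21 (Cacna1c), and 8.38 and 8.49 (Cacnb2), and the sodium-calcium exchanger Slc8a1 7.90 and 8.45. The smooth muscle and platelet type pump Atp2a3 read 8.60 and 8.63. Jph1, the skeletal junctophilin (4.79 and 4.49), and Atp2b4, a pump of the cell membrane (4.80 and 4.76), were above background on neither array, and Cacnb1, Camk2b and Cacna2d2 on 1 array each. The skeletal release channel Ryr1 (4.19 and 3.69) was not above background either.

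Potassium channel genes were mostly at background, with 11 of 29 above it (37.9%, median 4.51, against 60.4% and 6.22 for all genes). The highest was Kcnh2, which encodes the channel of the rapid delayed rectifier current, at 10.31 and 10.34. Kcnj11, the pore of the ATP-sensitive channel, read 9.60 and 9.52 and its sulfonylurea receptor Abcc8, known from atrium and pancreatic beta cells, 9.43 and 9.33. The other pore and receptor of that channel type, Kcnj8 (4.30 and 4.29) and Abcc9 (4.37 and 4.44), were not above background. Kcnk3, a leak channel of the atrium, read 7.87 and 8.06, and the slow delayed rectifier subunits Kcnq1 and Kcne1 read 6.16 and 6.24 (Kcnq1), and 6.74 and 6.56 (Kcne1). For the transient outward current, Kcnd2 differed between the arrays (6.69 and 5.57), and Kcnd3 (3.95 and 4.02) and Kcna4 (4.15 and 4.15) were not above background. Only 1 of 4 Kcnd2 probe sets was above it. Of the inward rectifiers besides Kcnj2, Kcnj12 (3.37 and 3.94) and Kcnj14 (3.78 and 3.78) were not above background.

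Of the listed sodium channel and pump genes 5 were not analysed here. Among the 15 measured 5 were above background (33.3%, against 60.4% of all genes). The 5 were the pump's beta subunits Atp1b1 (12.54 and 12.45), Atp1b3 (10.73 and 10.73) and Atp1b2 (5.54 and 5.77) and the pump regulators Fxyd1, phospholemman (10.86 and 10.67), and Fxyd5 (5.60 and 5.54). The sodium channel genes of this list, most of them of nerve, had 0 of 9 members above background, from Scn2b (4.61 and 4.60) to Scn1a (3.31 and 3.29). Intercalated disc genes, which join heart muscle cells, were above background in 19 of 24 cases (79.2%, median 8.91, against 6.22 for all genes). Ctnnb1, beta-catenin, read 12.13 and 12.12, the desmosome genes Dsg2 11.24 and 11.27, Dsp 10.34 and 10.46 and Pkp2 10.20 and 10.39, and N-cadherin, Cdh2, 10.28 and 10.38. Gja1, connexin 43, read 5.73 and 5.20, just above the line, and 1 of its 6 probe sets was above background. Not above it were the connexins Gja3 (4.17 and 4.90), Gja4 (4.17 and 4.20) and Gjb2 (4.69 and 4.65), the channel protein Panx1 (4.50 and 4.79) and the alpha-catenin Ctnna3 (4.67 and 4.65).

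**Figure D3:**
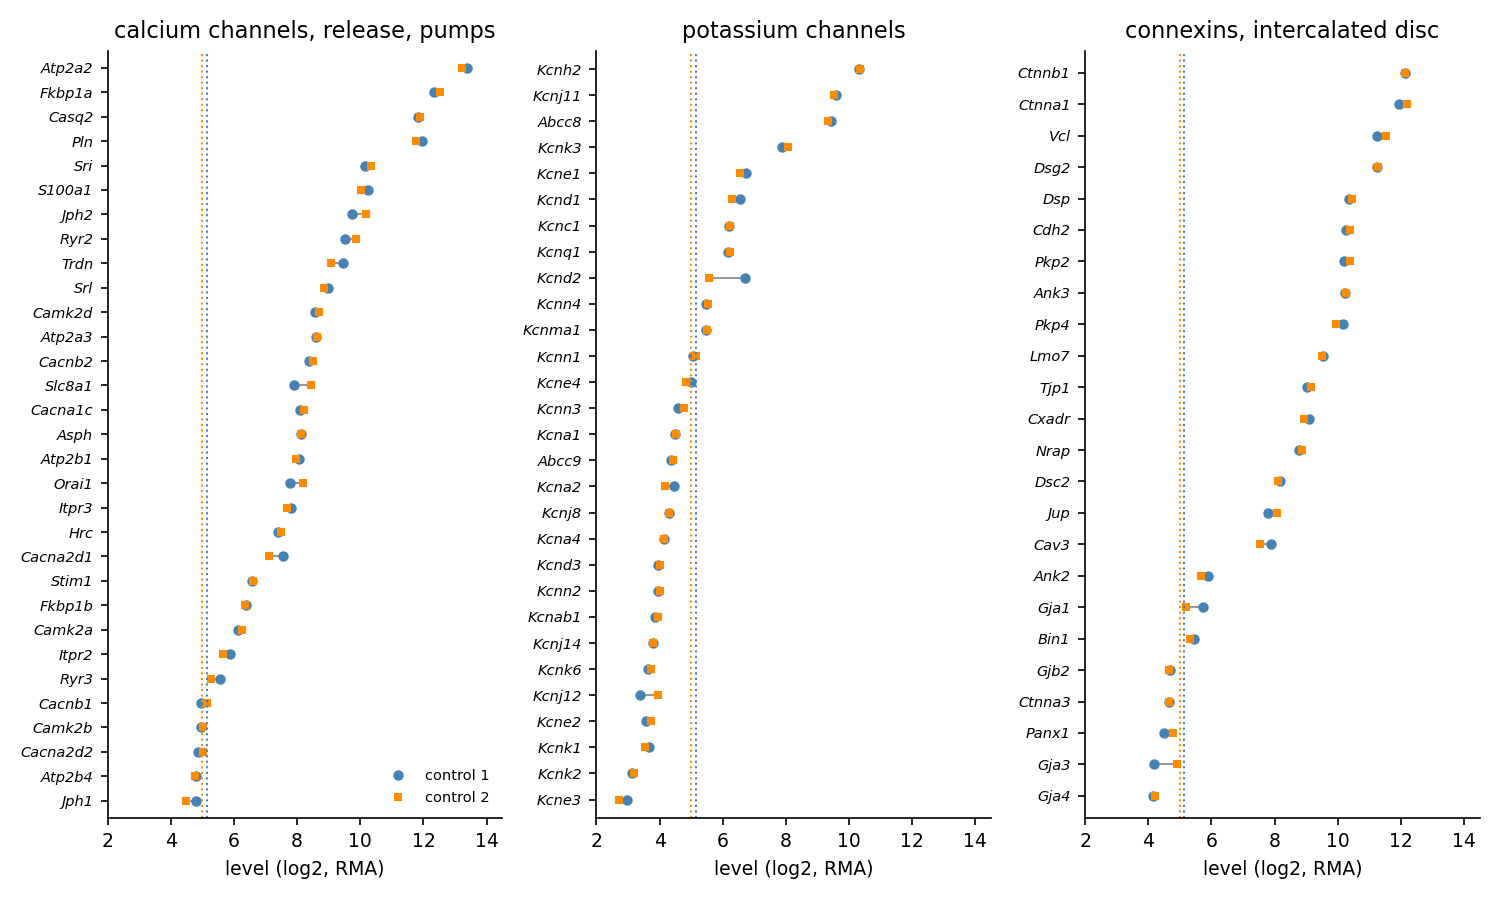
Levels of calcium handling, potassium channel and intercalated disc genes on control 1 (circles) and control 2 (squares), log2 scale, with the background level of each array dotted. Potassium channel genes are mostly left of the lines, with Kcnh2, Kcnj11 and Abcc8 between 9 and 10.5, while 26 of 31 calcium genes and 19 of 24 disc genes lie to the right.

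For the natriuretic peptide system apart from Nppa, 5 of 16 genes were above background (31.2%, against 60.4% of all genes). They were the prohormone-trimming carboxypeptidase Cpe (12.55 and 12.49), the clearance receptor Npr3 (8.04 and 8.34), the protease Furin (7.56 and 7.60), the C-type receptor Npr2 (7.44 and 7.38) and Nppb. Npr1, the receptor for the atrial peptide itself, read 4.47 and 4.57, and Corin, the protease that cuts its precursor, 5.62 and 4.88, above background on control 1 only. The granins Chga (3.44 and 3.71), Chgb (3.79 and 3.86) and Scg2 (3.54 and 3.60), which fill granules in endocrine cells, were not above background. Of 34 autonomic and hormone signalling genes 18 were (52.9%), less than the share of all genes. Most were common transducers, such as Prkar1a (12.47 and 12.62), Gnas (12.42 and 12.58) and the heart's adenylyl cyclases Adcy6 (8.98 and 8.80) and Adcy5 (8.84 and 8.84). Only 1 of 5 Gnas probe sets was above background. The alpha-1B adrenergic receptor Adra1b (4.98 and 5.86) passed on control 2 only, and 11 listed genes of this group were not analysed here. The angiotensin receptors Agtr1a (3.53 and 3.79) and Agtr2 (3.13 and 2.78) were not above background.

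Energy genes were among the brightest groups. Of 35 genes of respiration, creatine kinase and shuttles 33 were above background (94.3%, median 11.97), and 14 stood among the highest 1% of all genes. Over all genes the share above background was 60.4% and the median level 6.22. The heart and muscle isoforms Cox7a1 (10.93 and 10.81) and Cox6a2 (11.16 and 10.48) and the broadly expressed Cox6a1 (13.73 and 13.51) and Cox7a2 (13.14 and 13.17) were all above background. The muscle creatine kinase Ckm read 6.29 and 6.89, the brain type Ckb 10.28 and 10.29, the muscle mitochondrial type Ckmt2 8.53 and 7.89, and myoglobin, Mb, 7.91 and 7.79. In fatty acid use 26 of 30 were above background (86.7%), led by Hadh (12.20 and 12.21), the lipoprotein lipase Lpl (12.22 and 12.14) and Acadl (12.08 and 12.12). The 4 that were not were the fatty acid transporter Cd36 (3.50 and 3.52, with 0 of 3 probe sets above background), Fabp4 (3.69 and 3.87), Fabp5 (3.11 and 3.13) and Pparg (3.81 and 4.09). The heart fatty acid binding protein Fabp3 read 11.46 and 11.34. In glycolysis 28 of 29 were above background (96.6%, median 10.94). The insulin-responsive glucose transporter Slc2a4 read 8.58 and 8.52 and the basal one, Slc2a1, 9.92 and 10.67. The lactate dehydrogenase subunits Ldha and Ldhb read 12.97 and 13.35 (Ldha), and 12.29 and 12.06 (Ldhb), and Eno2, neuronal enolase, 4.96 and 4.69, was the only member not above background.

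Genes of DNA replication and mitosis were above background without exception: 49 of 49 measured, against 60.4% of all genes, with a median of 10.49. Of these 33 stood among the highest 10% and 44 among the highest 25% of all genes. Pcna, the sliding clamp of DNA polymerase, read 12.72 and 12.89 (rank 89), the ubiquitin ligase subunit Ube2c 12.14 and 12.46, and the helicase subunit Mcm7 12.14 and 12.17. Top2a, the topoisomerase of dividing cells, read 11.95 and 11.83, cyclin A2, Ccna2, 11.82 and 11.84, and the proliferation marker Mki67 11.52 and 11.77 (11.64 ± 0.18, rank 364). The mitotic kinases Cdk1, Aurka and Plk1 read 11.15 and 11.37 (Cdk1), 10.38 and 10.68 (Aurka), and 9.08 and 9.13 (Plk1). The lowest of the list was Tyms, thymidylate synthase, at 6.49 and 7.05. Of 36 of these genes with several probe sets, 17 had at least 1 not above background, as for Top2a, whose other probe sets gave 7.39 and 3.97.

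The arrays also carried signal of genes that restrain the cycle. Of 16 cycle regulators 14 were above background (87.5%, against 60.4% of all genes). This list also holds genes that drive the cycle, such as the D cyclins, Cdk4 and Cdk6. The share is therefore not one of restraining genes alone. The CDK inhibitors Cdkn2d (11.37 and 11.34), Cdkn2c (10.97 and 10.76) and Cdkn1b (10.37 and 10.40) were in the highest 10% of all genes. Cdkn1a, p21, a p53 target, was there too but differed between the arrays (9.98 and 11.29). The Cdkn2a locus, which encodes p16 and p19ARF, read 7.55 and 7.35. Of the retinoblastoma family, Rbl1 read 9.91 and 10.16, Rb1 8.08 and 8.14 and Rbl2 7.47 and 7.44. Among the cyclins of the D type, Ccnd3 read 8.92 and 9.20. Ccnd2 (4.44 and 4.50) was not above background on any of 7 probe sets, and Ccnd1 (4.83 and 5.05) exceeded it on 1 array.

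**Figure D4:**
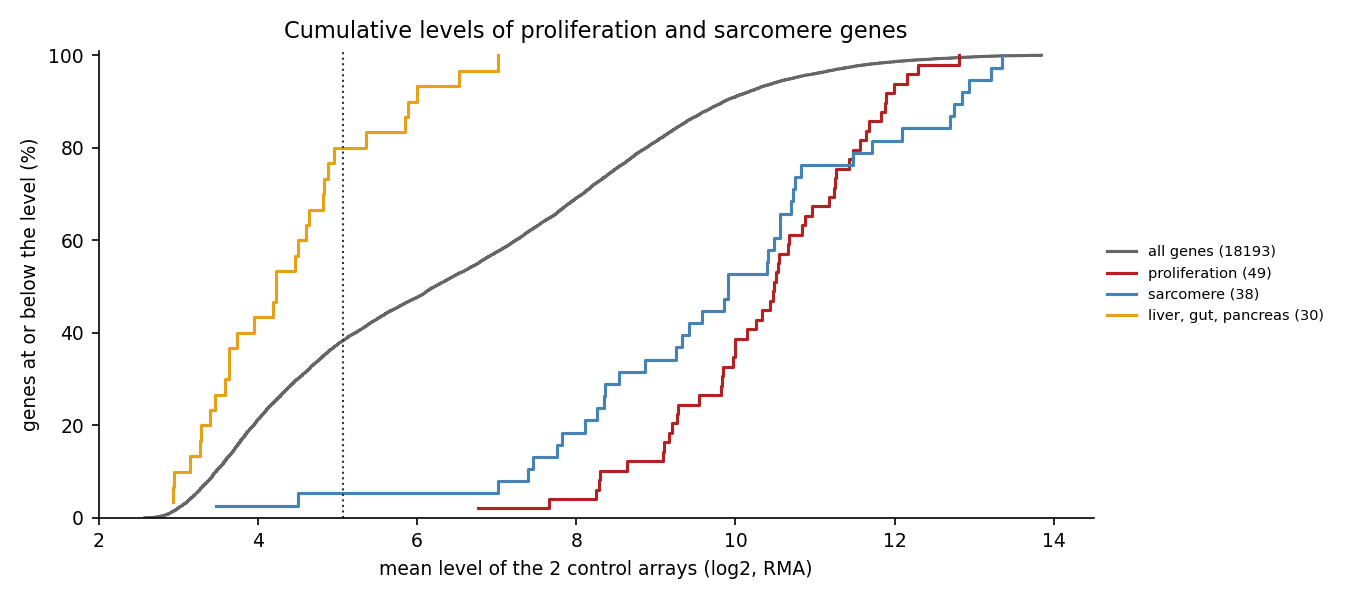
Share of genes at or below each level (mean of the 2 control arrays, log2 scale) for all genes, proliferation, sarcomere and liver, gut and pancreas genes, with the mean background level dotted. All 49 proliferation genes lie right of the line, with a median of 10.49, against 6.22 for all genes and 4.23 for the liver, gut and pancreas genes.

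Markers of other cell types were at background in most cases. Of 24 fibroblast genes 8 were above background (33.3%). Vimentin, Vim (12.88 and 13.22), and the matrix proteins Sparc (12.89 and 12.93) and Fn1 (9.94 and 10.52) were the highest. The collagen receptor Ddr2 (9.99 and 10.06) and the matrix protein Fbln1 (9.37 and 8.91) were above background on all their probe sets, and Mgp, Col1a1 and Col5a1 (5.61 and 5.33) were above it too. The other fibroblast genes, 16 in all, included Col1a2 (4.42 and 4.27), Col3a1 (3.53 and 3.54), Dcn (4.75 and 4.77), Lum (3.27 and 3.53), Pdgfra (4.57 and 4.66) and Thy1 (3.76 and 3.81), which were not above background. Of 14 smooth muscle and pericyte genes 9 were above it (64.3%): besides Acta2 these included the actin-binding proteins Tagln (11.49 and 12.10) and Cnn1 (10.18 and 11.00) and the light chain kinase Mylk (11.40 and 12.10). The smooth muscle myosin Myh11, the defining gene of the type, read 4.16 and 4.09 with 0 of 2 probe sets above background. The other probe sets of Acta2 gave 6.19 and 5.57. Tagln, Cnn1 and Mylk were each higher on control 2, by 0.61 to 0.82.

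Endothelial genes were above background in 7 of 20 cases (35.0%), with Npr3 and Egfl7 (7.74 and 7.94) the highest. Plvap (6.90 and 7.39), the TGF-beta coreceptor Eng (5.98 and 6.23), the VEGF receptors Kdr (6.02 and 5.63) and Flt1 (5.55 and 5.63) and Nfatc1 (5.30 and 5.20) were the other members above background. Pecam1 (4.06 and 4.27), Cdh5 (3.81 and 4.01), Tie1 (3.69 and 3.70) and Vwf (3.15 and 3.43) were not above it. Of 21 leukocyte and erythroid genes 7 were (33.3%). The highest were Csf1r (5.79 and 7.19), which differed between the arrays, and Cd3e (6.33 and 6.39), followed by Laptm5, Cd8a, Cd4, Spi1 and Lyz2, while Ptprc, the common leukocyte antigen (3.04 and 3.51), Itgam (3.30 and 3.78) and Cd68 (4.07 and 4.70) were not. Of 20 neural genes 8 were above background (40.0%), led by the filament protein Prph (9.62 and 9.51), Uchl1 (9.42 and 8.92) and Mbp (8.63 and 8.72) and followed by Syt1, Dbh, Rbfox3, Sox10 and Elavl3. Snap25 (2.68 and 2.88) and Nefl (3.44 and 3.35) were not. Of the 8 neural genes above background, 7 had at least 1 other probe set that was not. Epicardial genes passed in 5 of 12 cases (41.7%), led by Krt18, a keratin of simple epithelia (10.24 and 10.67), Tbx18 and Krt8 (7.06 and 6.56), while Wt1 (3.97 and 4.19) was not above background. Fat cell genes passed in 3 of 8 (37.5%), led by Cidea (8.22 and 8.53), while Adipoq (3.04 and 3.26) was not above background. All of these shares but that of smooth muscle lay below the 60.4% of all genes. Xist, the RNA of the inactive X chromosome, read 7.95 and 8.07, and the Y-linked genes Kdm5d (3.59 and 3.59), Uty (3.34 and 3.11) and Eif2s3y (2.84 and 2.98) were not above background. At least 1 other Xist probe set was not above background. Averaging the probe sets moved Xist from the highest 30.8% to the highest 46.4% of genes.

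The 2 control arrays were not alike in every group. Over the 10996 genes above background, control 2 minus control 1 had a median of 0.00 and an SD of 0.25. Control 2 was higher by more than 0.5 for 291 of them (2.65%) and lower by more than 0.5 for 253 (2.3%). With 1 array on each side such differences have no replicate check. Of the lists, the hypoxia response, genes that cells switch on when oxygen is short, had the largest median difference. Of 19 such genes above background 18 were higher on control 2, 16 of them by more than 0.5, and the median difference was 0.69. The list was chosen with earlier results of these data known, so these counts are a description and no independent support. Bnip3, a mitochondrial protein, read 10.15 and 11.35, Ankrd37 5.88 and 7.80, the oxygen-sensing prolyl hydroxylase Egln3 7.30 and 8.71, and Ak4, an adenylate kinase, 7.47 and 8.75. Vegfa, the vessel growth factor, read 8.10 and 8.72 and adrenomedullin, Adm, 8.51 and 9.28. Pfkfb4 ran the other way, at 6.50 and 6.11. The RNA of Hif1a itself read nearly the same on both arrays, and its protein was not measured here.

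In glycolysis 20 of 28 genes were higher on control 2, with a median difference of 0.25. The lactate exporter Slc16a3 (9.17 and 10.54), the kinase Pdk1 (7.63 and 9.01) and the aldolase Aldoc (9.23 and 10.14) differed most. A median of this size was not particular to glycolysis. It was 0.304 in the epicardial, 0.262 in the smooth muscle, 0.255 in the conduction and 0.253 in the atrial list. Energy genes ran slightly the other way, with 25 of 33 lower on control 2 (median difference -0.09). Proliferation genes differed little (median 0.06), and only 2 of 49 by more than 0.5: Mcm3, higher on control 1, and Tyms, higher on control 2. Among atrial genes Sln, Gja5 and Tbx5 were higher by more than 0.5 on control 2, and among the genes of the fetal or stressed heart Nppb and Ccn2 were too. Cited1, Cacna1h and Slc2a1, also in that list, were higher on control 2 by 1.08, 0.59 and 0.76. Uchl1, of the same list, was lower on control 2 by more than 0.5 (9.42 and 8.92). What part the hypoxia response has in these differences was not tested.

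By size, the 15 largest differences of named genes above background were led by Col1a1, a chain of type I collagen (5.51 and 7.55), whose other probe set had a mean of 6.08, and by Ankrd37. They also included the mineralisation inhibitor Mgp (6.47 and 7.96), the signalling inhibitor Smad6 (7.02 and 8.54), the zinc finger gene Plagl1 (10.53 and 12.02), Klhl10 (7.71 and 9.42), Mab21l4 (5.28 and 6.88), Gipr (5.70 and 7.10), Fgf11 (6.09 and 7.49) and Csf1r. Egln3, Pdk1, Slc16a3 and Cdkn1a complete the genes that were higher on control 2. Of the 15, 1 was higher on control 1, the stress gene Nupr1 (6.56 and 5.15). In all, 53 genes above background differed 2-fold or more between the arrays, 40 higher on control 2 and 13 higher on control 1.

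**Figure D5:**
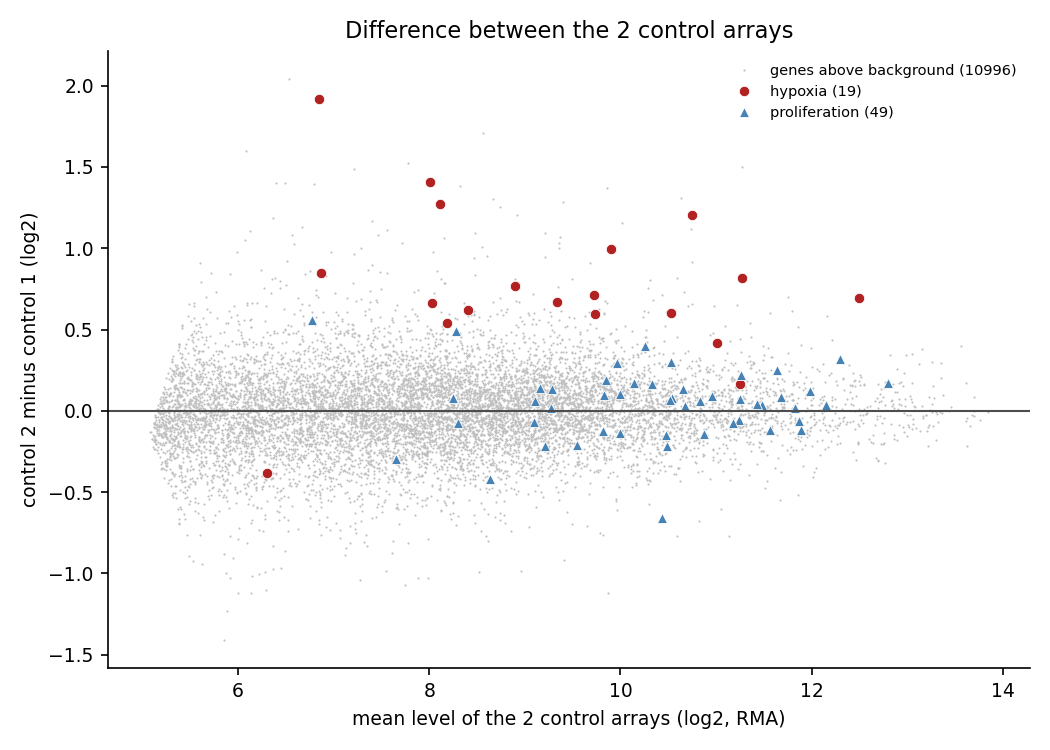
Control 2 minus control 1 (log2) against the mean level of the 2 arrays (log2) for the 10996 genes above background (grey), with hypoxia response genes as red circles and proliferation genes as blue triangles. Of 19 hypoxia genes 18 lie above 0, with a median of 0.69, while the proliferation genes scatter around 0. Both lists were chosen with earlier results of these data known.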

How the data were processed

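RNA of HL-1 cells was measured on 4 Affymetrix arrays, of which the 2 controls are described. Deposited levels were log2 values, and RMA is the tool named in the submitters' processing notes. RMA corrects background, normalizes arrays by quantiles and summarises probe sets. Its version and whether all 4 arrays were normalized together are not given in the sources used here. Differences shrink near the lower end of such values, so low levels carry little order. The table held 45101 probe sets, of which 64 manufacturer's controls were left out. In the platform annotation 34945 of the remaining 45037 carry a single gene symbol, 932 several and 9160 none. Gene identifiers of 34741 were found in RefSeq (GRCm38.p6), used for names and promoters. No symbol needed updating.

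For each of 18193 genes the probe set with the highest mean of the 2 controls was kept. Levels are given as both arrays (control 1, then control 2) or as mean ± SD (n = 2). The background call used the 95th percentile of 73 sensory receptor genes on each array. Of 718 listed genes 645 were measured, 2 under a newer symbol. The members and the 29 lists were chosen with earlier results of these data known. Named were the 30 highest genes, up to 6 per list and those a sentence counts out, a fixed set of atrial, conduction and proliferation genes (2 of which were not analysed here), and the 15 largest differences between the arrays, leaving out clone names. Other listed genes, chosen after their values were seen, are named for their function. Promoters were found for 499 of the 645. The number of arrays limits the precision. Python 3.11.15, pandas 2.3.3 and numpy 2.4.6 were used. Alternatives were the background level and genes, the probe set rule, a left-out array and median centring.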

Additional observations from a re-analysis of the deposited data

How the results depend on the processing

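The count of genes above background was 10996 and stayed within 1.5 times of that with the 99th percentile of the sensory receptors (9876), the array median (11181), the liver, gut and pancreas genes as background (8794), the mean of all probe sets (10058) and 1 array left out (11095 to 11367). It was 7311 with the lowest probe set of each gene, and 18193 with no filter, by construction. With the lowest probe set 9 conduction, 32 proliferation and 1 ventricular gene were above background, against 14, 49 and 3. In that setting the neural count fell from 8 to 1. With the liver, gut and pancreas genes as background 9 conduction genes and 1 ventricular gene were, and 49 proliferation genes. With averaged probe sets 48 proliferation genes were above background. Atrial counts ran from 10 to 14 over all these settings. With 1 array left out the counts were 13 to 14 atrial, 3 ventricular, 14 conduction and 49 proliferation genes. With the liver, gut and pancreas background the leukocyte count fell from 7 to 0, the potassium count from 11 to 6, and the skeletal and endothelial counts from 7 to 3 each. The median difference between the arrays in the hypoxia list was 0.71 with each array centred on its median, and 0.70 when probe sets were averaged, against 0.69. The rank of Top2a moved from the highest 1.54% to the highest 21.4% of genes, and that of Myl4 from 0.0879% to 5.69%, when probe sets were averaged. In the same setting Nppa moved from 4.5% to 2.19%, Myl2 from 10.6% to 5.35% and Mki67 from 2% to 0.956%. These last genes have 1 probe set each, so their levels were unchanged and only the levels of other genes moved around them. With each array centred on its median, the median difference between the arrays changed sign in the autonomic list (-0.011 to 0.009) and over all genes above background (-0.001 to 0.019). No paired analysis was possible because only 1 group was described.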

Other observations

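Of the next genes by signal, ranks 31 to 100 without clone names, several were outside every list. The chaperones Hspa8 and Hspb1 read 13.18 and 13.27 (Hspa8), and 13.26 and 13.16 (Hspb1), and Tubb5, a beta-tubulin, read 13.28 and 13.19. Cst3, a secreted protease inhibitor, read 12.97 and 13.14, the actin-binding peptide gene Tmsb10 13.21 and 13.18, and ferritin heavy chain, Fth1, 13.11 and 13.00. These genes were chosen after their values were seen.

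Among the genes that differed most between the 2 control arrays, past the 15 given above, the nuclear noncoding RNA Malat1 read 8.75 and 10.04 and Plod2, which hydroxylates collagen lysines, 8.32 and 9.52. Amhr2, the receptor for anti-Müllerian hormone, a gene best known from gonads, read 10.18 and 11.30. Selenbp1, which encodes a protein that binds selenium, read 9.44 and 10.59. Runx1, a blood cell factor, read 5.77 and 6.95, and the chromatin protein Hmgn3 (10.43 and 9.31) was higher on control 1. These genes, too, were chosen after their values were seen.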
